A study of Oryza sativa with 5 samples.

Results

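The comparison set 3 hybrid libraries of rice against the libraries of both parents of the cross, all 5 of the 5 libraries of the study, and asked in which genes every hybrid lay on the same side of both parents. SY63 is the hybrid of the indica lines ZS97, the female parent, and MH63, the restorer male parent. FU, written FV in the sample labels, is the same hybrid carrying an over-expression construct of the plant-specific histone deacetylase gene OsHDT1 under a maize ubiquitin promoter, and FR is the same hybrid carrying an OsHDT1 RNAi construct under the 35S promoter. Both transgenic hybrids came from ZS97 plants pollinated with transgenic MH63 plants, and the sources do not say which transgenic line was used for the libraries. MH63 and ZS97 are untransformed inbred lines. RNA came from seedlings 15 days old, kept under long days. Each genotype had 1 library, so the 3 hybrids are 3 genotypes and not replicates of 1, and any test over them measures the spread between genotypes as well as technical error. The sources name no growth or harvest batch, and a batch shared by the hybrids cannot be told apart from their being hybrids.

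A first-generation hybrid carries 1 copy of each parental genome, so a gene whose alleles act additively is expected to lie between the parents. Levels outside both parents are called non-additive, and genes above the higher parent or below the lower parent are the class discussed as overdominant in studies of hybrid vigour. OsHDT1 belongs to the HD2 family, found in plants only and classed with the histone deacetylases, enzymes that remove acetyl groups from histones, and the biochemical activity of the OsHDT1 protein was not measured in these data. The 3 hybrids thus carry the same parental genomes at different OsHDT1 levels.

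Transcripts were measured as tags of 21 bases. NlaIII, a restriction enzyme, opens the cDNA wherever CATG occurs, and the tag beside the cut nearest the 3′ end is read and counted. The libraries held 4857063 (SY63), 4821637 (FU) and 5011951 (FR) clean tags, against 5022081 (MH63) and 4957343 (ZS97), and between 69.5% and 73.9% of them lay on genes. Levels are given as TPM, tags of a gene relative to the clean tags of the library, scaled so that all clean tags sum to 1000000, which need no correction for transcript length. The joined tables held 22546 genes, and 19832, 20170 and 19782 of them had a tag in SY63, FU and FR, against 19041 in MH63 and 19080 in ZS97. The lowest count listed was 2, and a count of 0 is read here as allowing up to 3 tags. OsHDT1 (LOC_Os05g51830), the altered gene, had levels of 88.1 (SY63), 1574 (FU) and 28.3 TPM (FR), against 524 (MH63) and 61.3 TPM (ZS97), so that it was highest in FU and lowest in FR and the hybrids did not lie on 1 side of the parents.

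Tags of the genome-matched table show what was read. The lines below give, among tags with at least 20 copies in each library and without a mismatch, those that had the widest gaps between hybrids and parents in each direction, with the CATG cut site in capitals.
chromosome 4, position 31308303, plus strand: CATGtagtgtgtgacactgtg
chromosome 6, position 28108221, minus strand: CATGagagaactctacaccac
chromosome 12, position 6421206, minus strand: CATGgtgaaaaaataaatgaa
chromosome 12, position 4657380, minus strand: CATGccctgtatctgtatgat

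The chromosome 4 tag had 102, 104 and 136 TPM in SY63, FU and FR, against 58.1 in MH63 and 41.4 in ZS97. The chromosome 6 tag had 9.06, 13.1 and 9.78 TPM in the hybrids, against 5.38 and 5.85 in the parents. Both were above the parents in every hybrid, by gaps of 1.75 and 1.55 times between the lowest hybrid and the higher parent. The first chromosome 12 tag had 7.21, 11.6 and 11.0 TPM in the hybrids, against 22.7 and 22.6 in the parents. The second had 34, 30 and 25 copies in SY63, FU and FR, against 80 and 64 copies in MH63 and ZS97. Both were below the parents in every hybrid. The positions are those of the deposited table, whose genome build is not given in the sources used here, and the genes at these positions were not looked up.

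Among the 7538 tags of that table, all of which were found in every library, 663 (8.8%) were above both parents in all 3 hybrids and 996 (13.2%) were below both. Summed over the table, the tags took 49427, 46240 and 52550 TPM in SY63, FU and FR, against 63409 in MH63 and 54986 in ZS97, so the table as a whole was lower in the hybrids. Only 1 tag was called higher and 1 called lower in all 6 hybrid-parent pairs by the test described next (0.0133% in each direction).

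Every pairing of a hybrid with a parental library was put to Audic and Claverie's exact 2-sided test, which treats 2 tag counts as draws from libraries of known size. Calls required a false discovery rate (FDR) of 0.001 or less together with a ratio of levels of 1 or more on the log2 scale, in either direction. This test compares libraries and covers counting error only. MH63 differed from the hybrids in more genes than ZS97 did. Against MH63, 1487, 1821 and 1436 genes were called higher in SY63, FU and FR and 1962, 1738 and 1930 were called lower. Against ZS97, 598, 1115 and 675 genes were called higher in SY63, FU and FR and 222, 453 and 355 were called lower. A hybrid was called higher than both parents in 226 genes for SY63, 431 for FU and 220 for FR, and lower than both parents in 61, 134 and 91 genes. Most of these genes belonged to 1 hybrid: 438 genes were higher than both parents in exactly 1 hybrid, 125 in exactly 2, and 63 (0.279% of 22546 genes) in all 3. In the other direction the numbers were 210, 32 and 4 (0.0177%). The 6 pairs share libraries and are not independent.

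**Figure D1:**
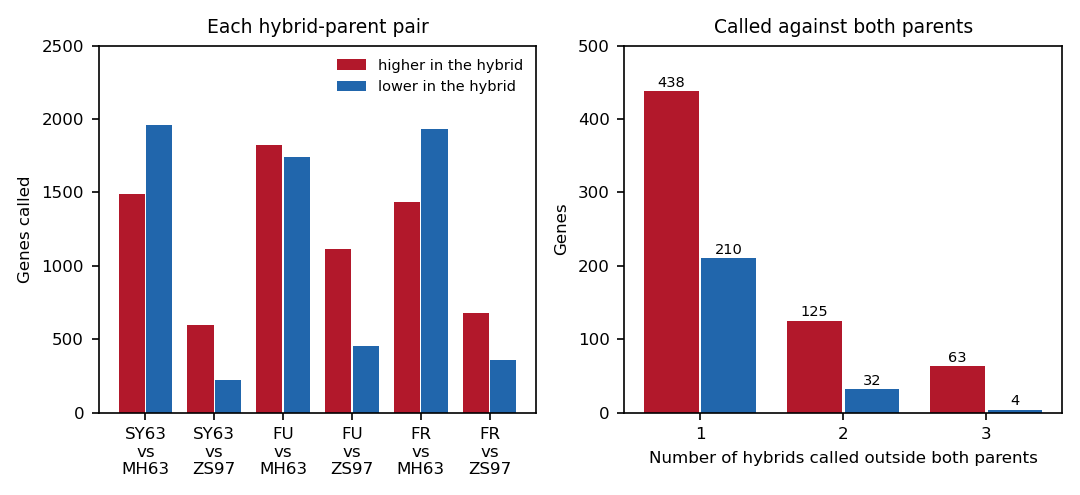
Left, genes called higher (red) or lower (blue) in each hybrid than in each parent; the vertical axis is the number of genes and each pair of bars is 1 hybrid-parent pair. Right, genes called outside both parents in exactly 1, 2 or 3 hybrids, where 63 genes were higher and 4 lower in all 3.

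By order alone, without a test, all 3 hybrids were above both parents in 2749 genes (12.2%) and below both in 2427 genes (10.8%). The exact permutation test of 3 libraries against 2 cannot go below p = 0.2, so the order of 1 gene is a description. Among the 15727 genes with at least 50 tags over the 5 libraries, 2049 (13.0%) were above and 2119 (13.5%) below. The directions separated once a gap was required: the lowest hybrid was at least 2 times the higher parent in 526 genes, and the lower parent at least 2 times the highest hybrid in 106. Among genes with at least 50 tags these numbers were 194 and 16. The direction also moved with expression level. Of the genes with a mean of 1 to 3 TPM, 17.9% were above both parents and 7.32% below, whereas of the genes with a mean of 30 to 100 TPM, 10.9% were above and 16.8% below. The hybrids listed more genes than the parents did, as given above, and the part of library composition in this trend was not tested.

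**Figure D2:**
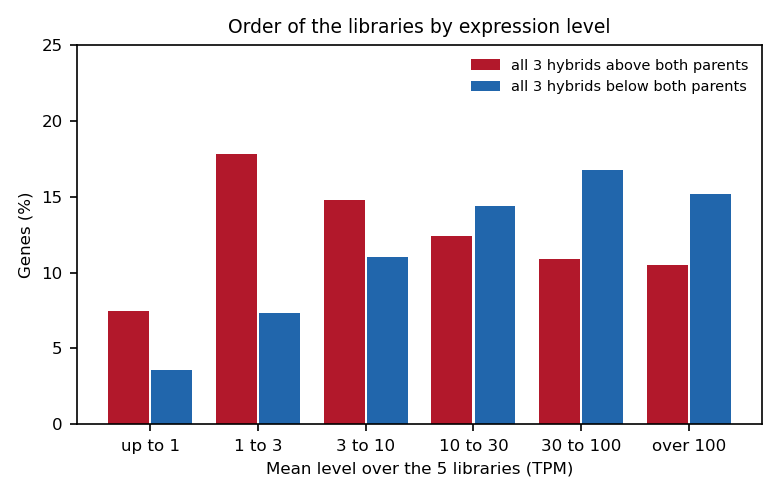
Percentage of genes in which all 3 hybrids were above (red) or below (blue) both parents, by mean level over the 5 libraries in TPM. The red bar falls from 17.9% at 1 to 3 TPM to 10.9% at 30 to 100 TPM while the blue bar rises from 7.32% to 16.8%.

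The class test, edgeR's quasi-likelihood test of hybrids against parents, called no gene at an FDR of at most 0.05 (0.0% of 16298 genes in each direction, lowest adjusted p 0.215 for a higher and 0.349 for a lower gene). At an unadjusted p under 0.05 it had 820 genes higher (5.03%) and 612 lower (3.76%). DESeq2's Wald test called 88 genes higher (0.473% of 18612) and 9 lower (0.0484%), and 56 of the 63 genes called higher in all 6 pairs were among its 88, which is 88.9% of the 63 and 63.6% of the 88. Of the 4 genes called lower in all 6 pairs, 2 were among its 9. All 63 and all 4 had an unadjusted edgeR p under 0.05, with edgeR log2 fold changes from 1.30 to 7.08 for the higher genes and from -2.08 to -1.42 for the lower ones, and edgeR adjusted p-values from 0.215 to 0.515. Words such as higher and lower are used below for the calls in the 6 pairs unless the order is named.

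The widest separation was that of a carbohydrate-binding protein. LOC_Os12g14440, a Jacalin-like lectin domain protein, had levels of 425 (SY63), 1573 (FU) and 326 TPM (FR), against 9.56 (MH63) and 15.3 TPM (ZS97). The counting interval of the FU value was 1538 to 1609 TPM and that of the ZS97 value was 12.1 to 19.2 TPM (95%, exact Poisson). The lowest hybrid was 21.3 times the higher parent, and the edgeR log2 fold change was 5.96 ± 0.87 (SE) with an edgeR adjusted p of 0.253. Its level varied among the hybrids too, with FU well above SY63 and FR. A further Jacalin-like lectin gene, LOC_Os12g09700, had 39, 232 and 82 tags in the hybrids, against 2 and 5 tags in the parents, again with FU highest. These were the 2 members called higher of the 8 joined genes with the Jacalin-like domain, of which 2 were above and 1 below both parents in all 3 hybrids.

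**Figure D3:**
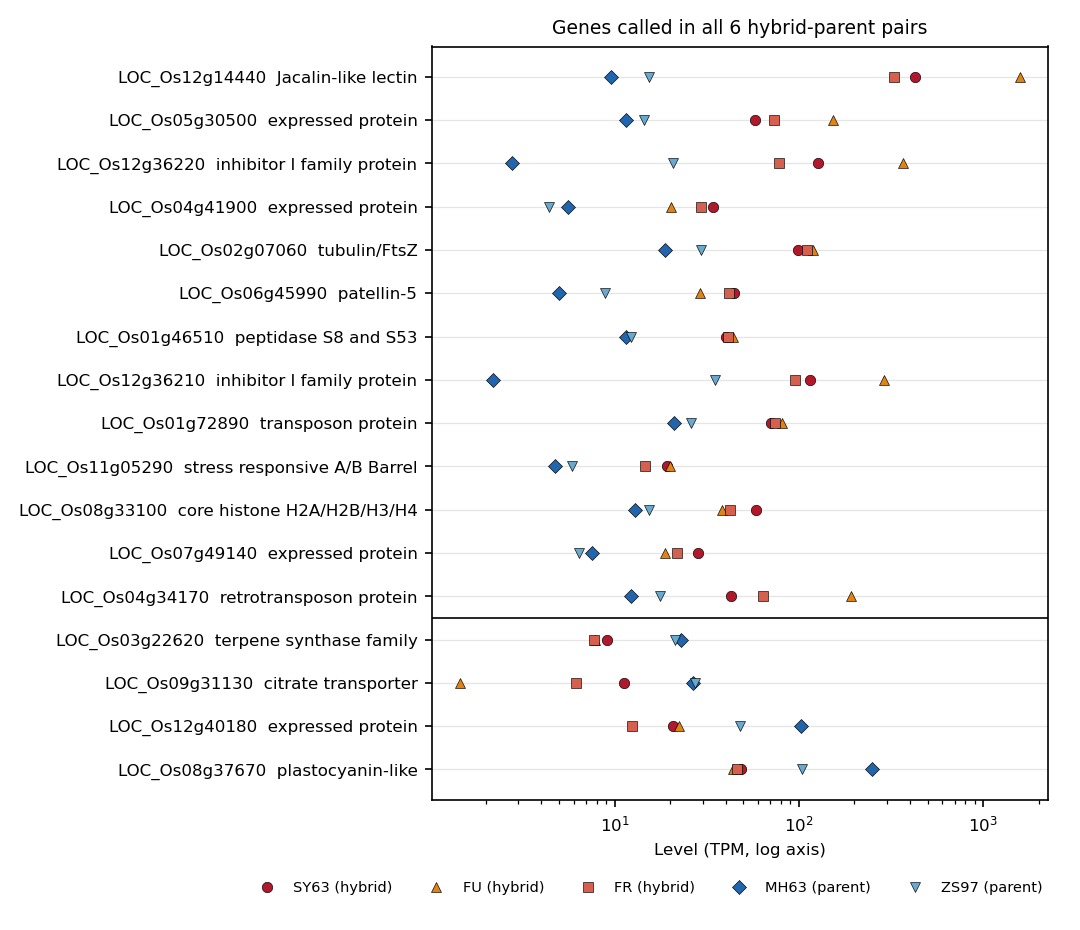
Level in TPM (log axis) of genes called in all 6 hybrid-parent pairs, with 1 row per gene and 1 symbol per library, hybrids in red and orange and parents in blue. The 13 genes above the line were higher and the 4 below it lower in the hybrids, and LOC_Os12g14440 has the widest gap, 21.3 times between the lowest hybrid and the higher parent.

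Further genes of the 63 encode inhibitors of proteases, oxidising enzymes and other proteins, given here by their annotation. They were picked from the 63 after their values were seen and stand for no tested theme. LOC_Os12g36220 and LOC_Os12g36210, annotated as inhibitor I family proteins, a family of serine protease inhibitors, lie next to each other in the locus numbering. LOC_Os12g36220 had 127, 369 and 77.8 TPM in the hybrids, against 2.79 and 20.8 TPM in the parents. LOC_Os12g36210 had 115, 289 and 95.0 TPM in the hybrids, against 2.19 and 35.1 TPM in the parents. The parents differed in both, MH63 being far below ZS97, and FU was again the highest library. LOC_Os01g03680 (BBTI8), a Bowman-Birk trypsin inhibitor, had 27.4, 46.2 and 8.38 TPM in the hybrids, against 1.39 and 0.605 TPM in the parents, and it was the 1 member called of 9 joined Bowman-Birk genes. LOC_Os03g52860, a lipoxygenase, an enzyme that oxidises polyunsaturated fatty acids and feeds jasmonate synthesis, had 136 tags in SY63, 853 in FU and 44 in FR, against 5 in MH63 and 0 in ZS97. FU was high and FR low among the hybrids for this gene, and the parental counts are too low to fix the size of a ratio. Of 11 joined lipoxygenase genes, 2 were above both parents in all 3 hybrids, 0 were below and this 1 was called.

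LOC_Os04g59260, a secreted peroxidase of the kind that cross-links cell walls, had 41, 139 and 32 tags in the hybrids, against 2 and 4 tags in the parents. Among 106 joined peroxidase genes, 21 (19.8%) were above and 5 (4.72%) below both parents in all 3 hybrids. Over all genes 12.2% were above and 10.8% below. The peroxidase list also took glutathione and ascorbate peroxidases. LOC_Os12g02470 (OsWRKY65), a transcription factor of the WRKY family, had 15.9, 40.9 and 16.6 TPM in the hybrids, against 0.597 and 3.03 TPM in the parents, whereas of the 70 joined WRKY genes 4 were above and 8 below. LOC_Os02g41904 (DEF7), a defensin-like peptide, had 67.1, 48.1 and 35.5 TPM in the hybrids, against 15.3 and 2.42 TPM in the parents. Its order among the hybrids was different, with SY63 highest. The neighbouring genes LOC_Os11g45990 and LOC_Os11g46000, both annotated with a von Willebrand factor type A domain, had 89, 325 and 215 tags in the hybrids, against 5 and 4 tags in the parents for the first and 149, 345 and 165 tags in the hybrids, against 16 and 24 tags in the parents for the second. Both were highest in FU. LOC_Os11g36940, an endo-1,3-beta-glucosidase of the class that cuts callose and fungal glucans, had 21.4, 21.4 and 26.5 TPM in the hybrids, against 10.2 and 8.47 TPM in the parents, with the hybrids close together. Of the 122 joined chitinase, glucanase and thaumatin genes, 25 (20.5%) were above and 7 (5.74%) below both parents in all 3 hybrids. Of the 122, 2 were called higher (1.64%, beside 0.279% of all genes). Tags that matched several genes had been removed before counting, so for neighbouring copies like these the counts come from tags that tell them apart, and how completely they do was not checked.

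Other genes among the 63 encode the machinery of DNA replication, chromatin and cell division. Plant cells replicate their DNA from origins opened by the MCM2 to MCM7 helicase, pack it into newly made histones, and separate it along microtubules moved by kinesins, under the control of cyclins and cyclin-dependent kinases. Transcripts of these genes are abundant in meristems and scarce in mature leaf tissue. Of the 63 genes, 16 fell in the lists of histones, cyclins and their kinases, replication proteins, kinesins, tubulins, chromosome segregation proteins and high mobility group proteins. The histone and cyclin lists were among the starting lists, and the others were added after the values had been seen, so their counts describe the genes and support nothing.

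Histones gave 4 of the called genes. LOC_Os06g06510, a histone H3, had levels of 87.3 (SY63), 36.3 (FU) and 30.7 TPM (FR), against 4.78 (MH63) and 3.43 TPM (ZS97). Its lowest hybrid was 6.43 times the higher parent, and the edgeR log2 fold change was 3.64 ± 0.57 (SE) with an edgeR adjusted p of 0.27. LOC_Os03g06670, a core histone, had 22.6, 14.3 and 15.2 TPM in the hybrids, against 2.19 and 1.61 TPM in the parents. LOC_Os01g64640, a further histone H3, had 39.3, 22.2 and 33.3 TPM in the hybrids, against 10.4 and 4.24 TPM in the parents, and LOC_Os08g33100, a core histone, had 58.5, 38.2 and 42.3 TPM in the hybrids, against 12.9 and 15.3 TPM in the parents. SY63 was the highest library in all 4. That no hybrid value overlapped a parental one follows from the call in all 6 pairs. Of 36 joined histone genes, 14 (38.9%) were above and 2 (5.56%) below both parents in all 3 hybrids, beside 12.2% and 10.8% over all genes. Of the 36, 4 were called higher and 0 lower. An unadjusted edgeR p under 0.05 was found for 10 in the higher direction against 0 in the lower. The median log2 ratio of mean hybrid to mean parental level, each with 1 TPM added, was 0.36 over the histone list, beside -0.014 over all genes. The most abundant histone transcripts did not share the direction: the histone H1 gene LOC_Os06g04020 had 1004, 612 and 1236 TPM in the hybrids, against 1601 and 1068 TPM in the parents, and the histone H3 gene LOC_Os03g27310 had 473, 509.6 and 393 TPM in the hybrids, against 958 and 340.3 TPM in the parents, and in both the classes overlapped. Because histone genes are near-identical copies, counts of single histone genes are uncertain.

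Cell cycle regulators were lower in level. LOC_Os08g40170 (cyclin-dependent kinase B2-1), one of the plant-specific kinases of mitosis, had 12.8, 9.54 and 8.38 TPM in the hybrids, against 1.99 and 1.21 TPM in the parents. Its relative LOC_Os01g67160 (cyclin-dependent kinase B1-1) had 7.82, 11.8 and 13.0 TPM in the hybrids, against 1.79 and 3.23 TPM in the parents, above both parents in every hybrid but not called in all 6 pairs. LOC_Os06g51110, a cyclin, had 19.4, 15.6 and 21.1 TPM in the hybrids, against 6.97 and 2.82 TPM in the parents and was called. The kinases of the A, C, E and G types were not separated in this way. For LOC_Os03g02680 (cyclin-dependent kinase A-1) the levels were 11.3, 16.2 and 7.78 TPM in the hybrids, against 11.2 and 6.46 TPM in the parents, and for LOC_Os04g41100 (cyclin-dependent kinase G-2) they were 60.3, 41.9 and 49.7 TPM in the hybrids, against 75.1 and 47.8 TPM in the parents. Of the 66 joined cyclins, their kinases and kinase inhibitors, 2 were called higher, and the median log2 ratio was 0.10. In all 3 hybrids 17 (25.8%) were above and 5 (7.58%) below both parents, beside 12.2% and 10.8% over all genes. Among those below was LOC_Os05g32600 (cyclin-dependent kinase D-1), with 14.6, 14.9 and 17.8 TPM in the hybrids, against 26.5 and 21.6 TPM in the parents. The list took every description with the word cyclin, including transcription-linked cyclins of the L and T types.

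**Figure D4:**
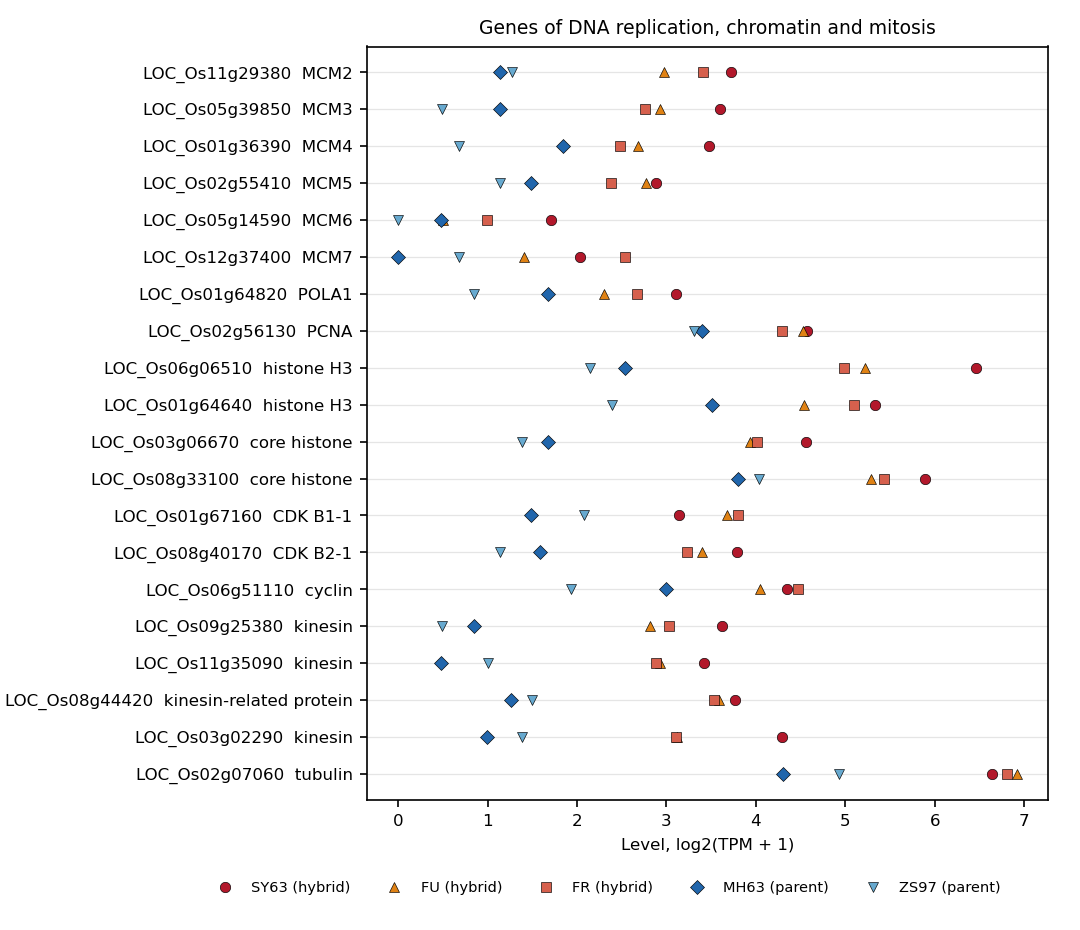
Level as log2(TPM + 1) of genes of DNA replication, chromatin and mitosis, with 1 row per gene and 1 symbol per library, hybrids in red and orange and parents in blue. In each row the 3 hybrids lie right of both parents, narrowly so for MCM6, where FU and MH63 had 2 tags each.

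All 6 joined members of the MCM complex were above both parents in every hybrid. LOC_Os11g29380 (MCM2) had 59, 33 and 48 tags in the hybrids, against 6 and 7 tags in the parents. LOC_Os05g39850 (MCM3) had 54, 32 and 29 tags in the hybrids, against 6 and 2 tags in the parents. These 2 were called in all 6 pairs, and SY63 was the highest library in both. LOC_Os01g36390 (MCM4) had 49, 26 and 23 tags in the hybrids, against 13 and 3 tags in the parents. LOC_Os02g55410 (MCM5) had 31, 28 and 21 tags in the hybrids, against 9 and 6 tags in the parents. LOC_Os12g37400 (MCM7) had 15, 8 and 24 tags in the hybrids, against 0 and 3 tags in the parents. In these 3 every hybrid was above both parents, but not every pair passed the FDR and ratio thresholds. LOC_Os05g14590 (MCM6) had 11, 2 and 5 tags in the hybrids, against 2 and 0 tags in the parents, where FU and MH63 had the same count and the order came from library size alone. Summed over the 6 genes the hybrids had 45.1, 26.8 and 29.9 TPM in SY63, FU and FR, against 7.17 TPM in MH63 and 4.24 TPM in ZS97.

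Other replication proteins lay above, within or below the parental range. LOC_Os02g56130 (PCNA), the ring that holds DNA polymerases on the template, had 22.9, 22.0 and 18.6 TPM in the hybrids, against 9.56 and 8.88 TPM in the parents, with an edgeR log2 fold change of 1.19 ± 0.29 (SE), an unadjusted p of 0.00376 and an edgeR adjusted p of 0.441. LOC_Os01g64820 (POLA1), the catalytic subunit of the primase-coupled DNA polymerase alpha, had 7.62, 3.94 and 5.39 TPM in the hybrids, against 2.19 and 0.807 TPM in the parents. Both were above the parents in every hybrid. The classes overlapped for the catalytic subunit of DNA polymerase delta, LOC_Os11g08330 (POLD1), with 4.74, 3.53 and 2.39 TPM in the hybrids, against 6.37 and 2.42 TPM in the parents. They overlapped as well for the clamp loader subunit LOC_Os11g36390 (RFC1), with 20.8, 14.7 and 15.8 TPM in the hybrids, against 13.3 and 16.5 TPM in the parents. The clamp loader subunit LOC_Os12g07720 (RFC4) was below both parents, with 11.9, 11.6 and 12.0 TPM in the hybrids, against 20.9 and 13.1 TPM in the parents. Of the 32 joined replication genes, 18 were above and 1 below both parents in all 3 hybrids, 2 were called higher, and 9 had an unadjusted edgeR p under 0.05 in the higher direction against 0 in the lower. The median level over the list was 3.88 TPM, and among all genes of 3 to 10 TPM 14.8% were above and 11.0% below.

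Kinesins, motor proteins that walk along microtubules, gave 4 of the 63 genes. LOC_Os09g25380 had 55, 29 and 36 tags in the hybrids, against 4 and 2 tags in the parents. LOC_Os08g44420 had 61, 53 and 53 tags in the hybrids, against 7 and 9 tags in the parents. In both the lowest hybrid count was more than 5 times the higher parental level, with ratios of 7.55 and 5.82. LOC_Os11g35090 had 47, 32 and 32 tags in the hybrids, against 2 and 5 tags in the parents, and LOC_Os03g02290 had 90, 37 and 38 tags in the hybrids, against 5 and 8 tags in the parents, with SY63 highest in each of the 4. Of 45 joined kinesin genes, 21 had an unadjusted edgeR p under 0.05 in the higher direction against 0 in the lower. The median log2 ratio was 0.79. In all 3 hybrids 27 (60.0%) were above and 1 (2.22%) below both parents, beside 12.2% and 10.8% over all genes. LOC_Os02g01180 was the member below, with 21.4, 27.8 and 29.9 TPM in the hybrids, against 41.6 and 30.7 TPM in the parents. Among the 18 joined tubulins, subunits of the microtubule, 9 were above and 0 below. The called tubulin gene, LOC_Os02g07060, had levels of 99.0 (SY63), 119.7 (FU) and 111 TPM (FR), against 18.7 (MH63) and 29.5 TPM (ZS97), a gap of 3.36 times and an edgeR log2 fold change of 2.19 ± 0.32 (SE) with an edgeR adjusted p of 0.253. LOC_Os11g14220, the most abundant tubulin gene here, overlapped between the classes with 730.5, 546 and 669.6 TPM in the hybrids, against 773 and 437 TPM in the parents.

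Further called genes act at chromosomes. LOC_Os02g47150, DNA topoisomerase 2, which untangles replicated DNA, had 15.6, 7.05 and 13.0 TPM in the hybrids, against 1.79 and 0.807 TPM in the parents. The high mobility group genes LOC_Os08g01100 and LOC_Os02g15810 had 26.8, 11.6 and 17.0 TPM in the hybrids, against 0.996 and 2.42 TPM in the parents for the first and 12.6, 5.60 and 7.98 TPM in the hybrids, against 0.996 and 0.403 TPM in the parents for the second. LOC_Os01g67740, a chromosome segregation protein, had 37, 23 and 33 tags in the hybrids, against 0 and 2 tags in the parents. The lack of overlap between hybrids and parents in these genes follows from their call. The last had at most 3 tags in either parent, so the size of its ratio is not determined. Of the 7 joined high mobility group genes, 2 were called higher. In all 3 hybrids 4 (57.1%) were above and 1 (14.3%) below both parents, beside 12.2% and 10.8% over all genes. The member below, LOC_Os01g47600, had 15.0, 8.71 and 11.4 TPM in the hybrids, against 27.3 and 21.6 TPM in the parents. LOC_Os01g49200, a microtubule-associated protein, had 29.0, 21.2 and 29.9 TPM in the hybrids, against 0.597 and 2.22 TPM in the parents. LOC_Os06g45990, annotated as patellin-5, a lipid-binding protein of the Sec14 type, had 44.7, 29.2 and 41.7 TPM in the hybrids, against 4.98 and 8.88 TPM in the parents, and its hybrid values ran from 3.29 times the higher parent upward.

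Over the 16 genes of the division lists SY63 was the highest hybrid in 14, FU in 1 and FR in 1, and the median log2 ratio of FU to SY63 was -0.71. Over the other 47 genes called higher, FU was highest in 25, SY63 in 17 and FR in 5, and the median log2 ratio of FU to SY63 was 0.13. Over the whole lists, called or not, the share was smaller: SY63 was the highest hybrid in 20 of 36 histone genes, 29 of 66 cyclin and kinase genes, 18 of 32 replication genes and 23 of 45 kinesins. Over all genes FU was the highest hybrid in 9253, SY63 in 6733 and FR in 5915. The split of the 63 genes into these lists followed their descriptions after the values were seen, and the difference was not tested.

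In whole seedlings a lower level can mean fewer cells of a type or less RNA per cell, and these cannot be told apart. The markers were read beside the division genes. Summed over 92 genes with a core histone or cyclin description, the markers fixed for dividing cells, the libraries had 2135, 1674 and 1940 TPM in SY63, FU and FR, against 1915 in MH63 and 1542 in ZS97, with 26 genes above and 6 below both parents, so that the classes overlapped in the sum while single genes separated. The 39 green tissue markers (chlorophyll-binding, photosystem and Rubisco small subunit genes) summed to 79290, 77434 and 85630 TPM in the hybrids, against 64109 and 74562 TPM in the parents, with 4 genes above and 3 below. Of the 5 root markers only LOC_Os02g51110 was joined, with 13.8, 15.8 and 26.3 TPM in the hybrids, against 12.7 and 13.3 TPM in the parents. The 2 seed storage markers joined summed to 19.4, 7.47 and 15.4 TPM in the hybrids, against 8.56 and 18.1 TPM in the parents. The green tissue sum and the root marker were thus higher in every hybrid. The light-harvesting and photosystem genes, 35 of the 39 green tissue markers, summed to 32847, 32283 and 27532 TPM in the hybrids, against 21295 and 33371 TPM in the parents, so that no hybrid was above ZS97, and the median log2 ratio of the green tissue markers, 0.19, became -0.15 without MH63. The part of tissue make-up in the results was not tested.

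Genes of cell wall enzymes lay above the parents more often than below by order. The list of expansins, cellulose synthases and other wall enzymes had 109 joined genes. Of these, 32 (29.4%) were above and 5 (4.59%) below both parents in all 3 hybrids, beside 12.2% and 10.8% over all genes. From the list 0 were called in all 6 pairs, and 12 against 1 had an unadjusted edgeR p under 0.05. Its median log2 ratio was 0.25. LOC_Os05g08370 (CESA1), a subunit of cellulose synthase, had 32.9, 45.0 and 44.1 TPM in the hybrids, against 13.7 and 21.8 TPM in the parents. LOC_Os03g62090 (CESA5) had 12.6, 15.6 and 12.6 TPM in the hybrids, against 8.16 and 5.24 TPM in the parents. LOC_Os02g51040, an expansin, a protein that loosens the wall, had 27.8, 28.8 and 40.9 TPM in the hybrids, against 18.1 and 14.5 TPM in the parents. In each the hybrids did not overlap the parents, as the rule by which they were named requires. No gap reached 2 times, and the edgeR adjusted p of LOC_Os05g08370 was 0.496. The cellulase gene LOC_Os05g15510, which the words of the list did not take, was called higher, with 21.8, 21.6 and 22.7 TPM in the hybrids, against 7.77 and 10.1 TPM in the parents. It was named after its values were seen.

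A gene annotated as a gibberellin repressor stood among the called genes. LOC_Os06g03710, with the putative description DELLA protein SLR1, had 39, 22 and 21 tags in the hybrids, against 2 and 2 tags in the parents. DELLA proteins hold back gibberellin responses until they are degraded, and whether this gene encodes one was not checked. The parents had at most 3 tags each, so no ratio is given. Of the 62 joined genes with gibberellin in their description, 0 were called. In all 3 hybrids 12 (19.4%) were above and 6 (9.68%) below both parents, beside 12.2% and 10.8% over all genes. LOC_Os12g27350, annotated as a 10-deacetylbaccatin III acetyltransferase, had 19.6, 121 and 21.9 TPM in the hybrids, against 2.79 and 1.01 TPM in the parents, and LOC_Os05g06140, a lipase, had 13.0, 30.5 and 18.6 TPM in the hybrids, against 1.99 and 1.01 TPM in the parents. For both FU was the highest library. The remaining called genes included 8 with no annotated function. LOC_Os05g30500 had 57.9, 153 and 73.0 TPM in the hybrids, against 11.5 and 14.5 TPM in the parents. LOC_Os04g41900 had 34.2, 20.1 and 29.3 TPM in the hybrids, against 5.58 and 4.44 TPM in the parents. LOC_Os07g49140 had 28.4, 18.7 and 21.9 TPM in the hybrids, against 7.57 and 6.46 TPM in the parents. Among genes with steady values in the hybrids, the subtilisin-type peptidase LOC_Os01g46510 had 40.4, 43.8 and 41.1 TPM in the hybrids, against 11.5 and 12.3 TPM in the parents, the CACTA transposon LOC_Os01g72890 had 70.2, 80.7 and 74.4 TPM in the hybrids, against 21.1 and 26.0 TPM in the parents, and the stress-responsive A/B barrel gene LOC_Os11g05290 had 19.1, 19.9 and 14.6 TPM in the hybrids, against 4.78 and 5.85 TPM in the parents.

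Only 4 genes were called lower than both parents in all 3 hybrids. LOC_Os08g37670, with a plastocyanin-like domain of the small copper proteins, had levels of 48.8 (SY63), 44.0 (FU) and 46.1 TPM (FR), against 250.3 (MH63) and 103 TPM (ZS97). The lower parent was 2.12 times the highest hybrid, and the edgeR log2 fold change was -1.93 ± 0.38 (SE) with an edgeR adjusted p of 0.349. The 3 hybrids were close together while the parents differed from each other. LOC_Os12g40180, of no annotated function, had 20.8, 22.4 and 12.4 TPM in the hybrids, against 103 and 47.8 TPM in the parents. LOC_Os03g22620, a terpene synthase, had 9.06, 7.88 and 7.78 TPM in the hybrids, against 22.9 and 21.4 TPM in the parents, with little spread within either class. LOC_Os09g31130, a citrate transporter, had 11.3, 1.45 and 6.19 TPM in the hybrids, against 26.5 and 27.2 TPM in the parents, and here the hybrids differed among themselves, FU being lowest. No tag was listed in any hybrid for a further gene, outside these calls. LOC_Os10g38600, a glutathione S-transferase of the tau type (GSTU6), had 0, 0 and 0 tags in the hybrids, against 10 and 11 tags in the parents. With a count of 0 set to 3 tags per library, the lower observed parental level was 3.20 times the highest hybrid floor. The counting error of the parental tags is not covered, so 3.20 is not a lower bound of the ratio. The gene was named for these counts. It was not called in all 6 pairs.

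Stress-related transcription factor families leaned below the parents. Of 77 joined NAC genes, 4 were above and 18 below both parents in all 3 hybrids, and of 109 joined AP2/ERF genes, 8 were above and 18 below, with medians of the log2 ratio of -0.26 and -0.24. Without MH63 these medians were -0.097 and -0.053, while the median over all genes moved from -0.014 to 0.10. No member of either family was called in all 6 pairs. LOC_Os01g66120, a NAC gene, had 103, 71.3 and 101 TPM in the hybrids, against 200.1 and 153 TPM in the parents, an edgeR log2 fold change of -0.94 ± 0.29 (SE) and an edgeR adjusted p of 0.515. LOC_Os04g38720, a further NAC gene, had 5.15, 9.13 and 5.79 TPM in the hybrids, against 19.5 and 12.3 TPM in the parents. In both every hybrid was below both parents. LOC_Os05g41780, an AP2 gene, had 100.1, 132 and 107 TPM in the hybrids, against 212 and 213 TPM in the parents. LOC_Os03g08490, also an AP2 gene, had 7.41, 6.43 and 6.19 TPM in the hybrids, against 40.4 and 10.9 TPM in the parents, with close hybrids and parents far apart. Beside the 12.2% above and 10.8% below over all genes, F-box genes had 8.03% above and 13.0% below of 386, calcium sensors 13.0% and 18.8% of 223, and heat shock and chaperone genes 10.6% and 16.8% of 179. Without MH63 the F-box genes had 89 above and 87 below ZS97, beside 6147 above and 5330 below over all 22546 genes. The median of the calcium sensors, -0.073, became 0 while that over all genes became 0.10, so it stayed below all genes.

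**Figure D5:**
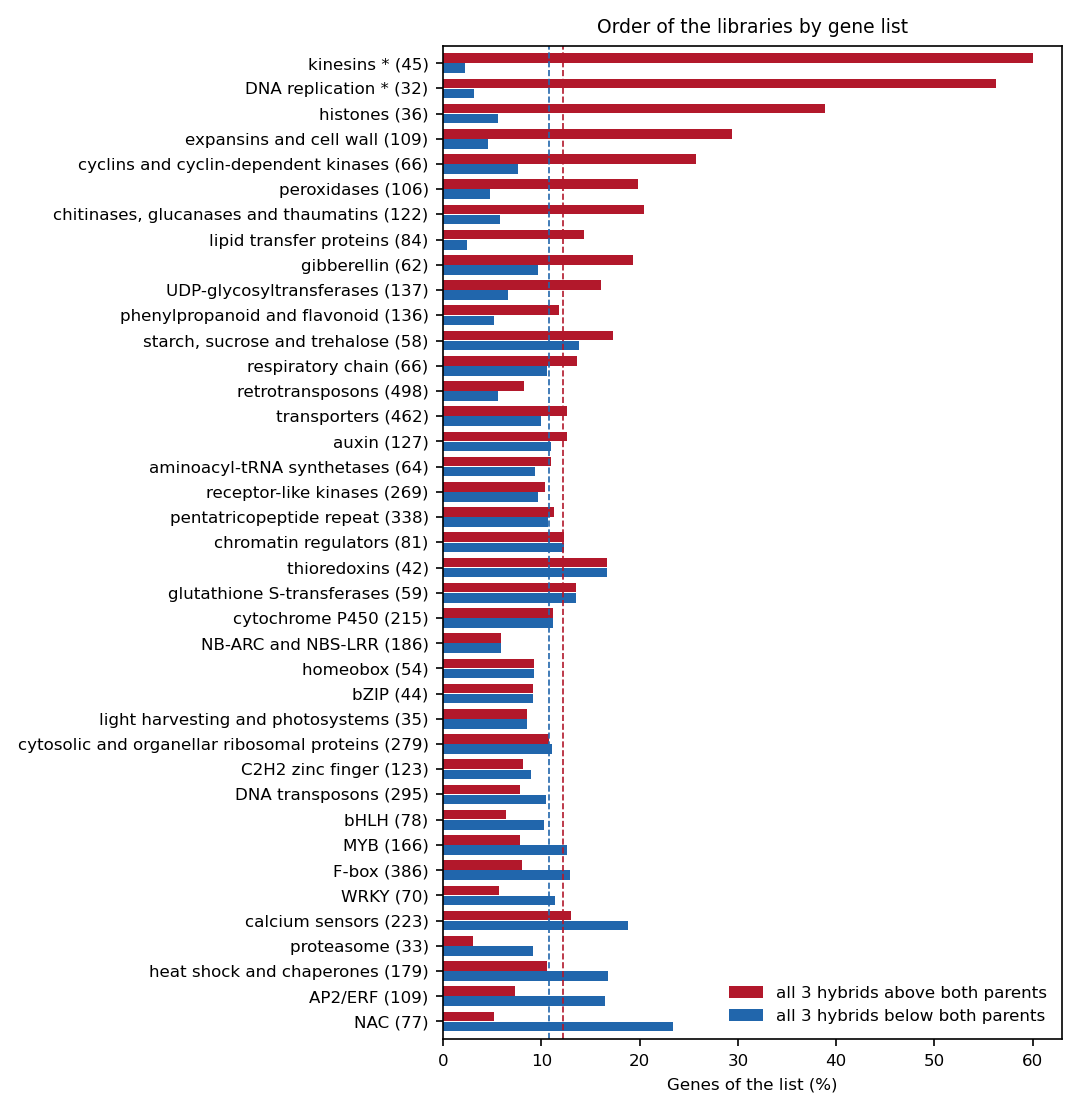
Percentage of genes of each list in which all 3 hybrids were above (red) or below (blue) both parents, with the number of joined genes in parentheses and an asterisk on lists added after the values were seen. Dashed lines are the shares over all genes, 12.2% above and 10.8% below; kinesins, replication genes, histones and wall genes lie right of the red line and NAC genes right of the blue one.

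The clock and flowering genes, the subject of the study's own expression work, lay mostly within or below the parental range. LOC_Os01g08700 (OsGI), the rice GIGANTEA gene of the circadian clock, had levels of 414 (SY63), 383 (FU) and 495 TPM (FR), against 539 (MH63) and 620.5 TPM (ZS97). Every hybrid was below both parents, with an edgeR log2 fold change of -0.43 ± 0.27 (SE) and an edgeR adjusted p of 0.628. The study reported the opposite for SY63, with OsGI and Hd1 above the parents under long days. That work used qRT-PCR on leaves of older plants sampled through the day. These libraries come from younger seedlings, also under long days, harvested at a single time of day. The paper puts the highest expression of OsGI and Hd1 at that hour, which its series through the day included. Age, tissue and method differ, and the libraries hold no course through the day. LOC_Os11g05930, a response regulator, had 35.0, 26.5 and 32.5 TPM in the hybrids, against 73.3 and 44.2 TPM in the parents, and LOC_Os03g17570, of the same annotation, had 133, 148 and 128 TPM in the hybrids, against 172 and 171 TPM in the parents, both below the parents. LOC_Os02g40510, another response regulator, was above them with 53.9, 75.5 and 57.9 TPM in the hybrids, against 34.6 and 51.4 TPM in the parents. The other 7 of the 11 joined genes overlapped between the classes, among them LOC_Os06g05060 (ELF3) with 45.7, 35.9 and 39.9 TPM in the hybrids, against 36.6 and 55.5 TPM in the parents and LOC_Os06g16370 (CCT/B-box zinc finger) with 9.47, 6.01 and 5.39 TPM in the hybrids, against 0.996 and 10.1 TPM in the parents. None of the 11 was called in all 6 pairs.

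Photosynthesis and protein synthesis genes had like numbers on each side. Of 35 joined light-harvesting and photosystem genes, 3 were above and 3 below both parents in all 3 hybrids, and the median log2 ratio of 0.19 became -0.18 without MH63. LOC_Os02g37060, a photosystem II protein of 5 kDa, was above, with 1761, 1427 and 1435 TPM in the hybrids, against 1320.0 and 1008 TPM in the parents. LOC_Os09g12540, a chlorophyll-binding protein, was below, with 19.1, 18.7 and 18.8 TPM in the hybrids, against 23.5 and 25.8 TPM in the parents. Of 279 joined ribosomal protein genes, 30 were above and 31 below, shares near those of all genes.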

How the data were processed

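Seedling RNA of 5 rice genotypes was measured by tag sequencing, with 1 library per genotype. According to the study's methods, cDNA was cut with NlaIII, Illumina sequencing read the tags, and the clean ones were assigned to cDNAs of the MSU rice annotation if they had 1 mismatch or less. Tags matching several genes were removed by the authors. The deposited counts are the remaining tags per gene and are not normalized. The TPM values of the authors scale these counts by the clean tags of the library and write 0.01 in place of 0. The aligner and the steps to clean tags are not given in the sources used here. A deposited table of genome-matched tags holds their counts per library. The authors' p-values, false discovery rates and ratios were not used.

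The unfiltered tables were joined by gene, with a missing gene as 0. The tables of shared libraries disagreed in 0 values. Totals of clean tags were derived from the counts and TPM values. The libraries held 4821637 to 5022081 clean tags, at which 3 tags equal 0.597 to 0.622 TPM. Intervals (95%) and floors cover counting error only.

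Hybrids were compared with parents by order, by the exact 2-sided Audic and Claverie test in 6 pairs (Benjamini-Hochberg per pair, FDR at most 0.001, absolute log2 ratio at least 1) and by edgeR 4.0.16's quasi-likelihood test with clean-tag totals as library sizes and its own filter on low counts (R 4.3.3, FDR at most 0.05). DESeq2 1.42.0 was an alternative. Gene lists were taken from words of the deposited descriptions and described by counts and by the median log2 ratio of mean levels with 1 TPM added, with no test. Of the cyclin and globulin lists, descriptions of tetracycline, recycling and immunoglobulin were removed, and 6 lists of replication and mitosis words were added after values were seen. The members and lists were chosen with earlier results of these data known. Scripts were tested on simulated data.

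Genes were named by rule: of genes called in all 6 pairs, the 10 with the widest gap and at least 20 tags in each library, and the 5 with the highest level, in each direction; the 5 highest genes with at most 3 tags in either class; up to 4 members of each list with the widest gap and at least 20 tags in each library; OsHDT1, OsGI and the clock and flowering genes; and the 5 tags with the widest gap in each direction among those with at least 20 copies in each library. Other genes named, among them the remaining called genes, the MCM and polymerase genes, the kinesins and the genes given as overlapping, were chosen after their values were seen. Gene names are those of the deposited descriptions, and the reference table at hand matched 0 of the gene identifiers, so no gene coordinates are given.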

Additional observations from a re-analysis of the deposited data

How the results depend on the processing

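Scaling by edgeR's TMM factors or DESeq2's size factors kept each count over all genes or tags within 1.5 times: 68 and 65 genes were called higher and 4 and 4 lower in all 6 pairs, 62 and 59 of the 63 higher genes and all 4 lower ones being shared. Adding 1 TPM before the ratio gave the same 63 and 4 genes. With no ratio threshold 161 genes were called higher and 82 lower. A gap of at least 2 times left 526 genes above and 106 below in order. DESeq2's Wald test called 88 genes higher and 9 lower where edgeR's test called 0 and 0. The cause of that difference was not tested. Without 1 library each rule asks less, and the counts grew: 96 to 818 genes were called higher and 12 to 828 lower in all remaining pairs, the highest of each without ZS97 and the next (277 and 46) without MH63, and the 63 and 4 genes were among them in each case. That the 63 and 4 genes stayed called follows from the rule, since fewer pairs are asked for. The order gave 3615 to 6190 genes above and 3238 to 8179 below, and 1000 to 2161 tags above and 1423 to 2617 below. Leaving out a library, edgeR's test called 0 to 1169 genes higher and 0 to 1323 lower: 0 without any 1 hybrid, 156 and 14 without MH63, and 1169 and 1323 without ZS97, where 1 parental library stands alone and is assumed to vary like the hybrids. Among the 56 gene lists, the medians of 10 under TMM and of 7 under DESeq2 size factors moved by more than 1 SD over the 3 hybrids. Leaving out a library moved more of them: 37 without MH63, 23 without ZS97, 19 without FU, 12 without SY63 and 7 without FR. No gene named by the rule, or called, that lay outside the parental range and was fitted by edgeR changed direction under any alternative run. Every hybrid already lay on 1 side of both parents in these genes. Leaving out a library could therefore not reverse them and does not test their direction. The medians of the histone, cyclin, kinesin, replication and wall lists stayed above 0 in all 7 alternatives run on lists. Those of the NAC and AP2/ERF lists stayed below 0. Most kinesin and replication genes already lay above both parents in all 3 hybrids. Leaving out a library could hardly reverse their medians and does not test them. The WRKY, F-box, heat shock, light-harvesting and ribosomal medians changed sign without MH63, the ribosomal one also under TMM and without FR. Without MH63 the median over all genes itself moved from -0.014 to 0.10. The F-box, heat shock and ribosomal medians, then 0.033, 0.017 and 0.028, stayed below it. No paired analysis was possible because the labels give no replicate numbers and each genotype has 1 library. Depth limits division genes with few parental tags, such as MCM2 with 6 in MH63 and 7 in ZS97.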

Other observations

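Of the transposon-related genes, 1 of 498 joined retrotransposon genes (0.201%) and 1 of 295 DNA transposon genes (0.339%) were called higher, shares near the 0.279% of all genes. LOC_Os04g34170, annotated as an unclassified retrotransposon protein, had 42.6, 191 and 63.8 TPM in SY63, FU and FR, against 12.3 and 17.5 TPM in MH63 and ZS97, with FU highest. Of 498 joined retrotransposon genes, 41 (8.23%) were above and 28 (5.62%) below both parents in all 3 hybrids. Of 295 DNA transposon genes, 23 (7.80%) were above and 31 (10.5%) below. Over all genes 12.2% were above and 10.8% below. Retrotransposon genes had a median level of 0.448 TPM, and of all genes up to 1 TPM 7.47% were above and 3.60% below. Lipid transfer proteins had 12 above (14.3%) and 2 below (2.38%) of 84, and UDP-glycosyltransferases 22 above (16.1%) and 9 below (6.57%) of 137. The median levels of these lists were 6.21 and 2.39 TPM. Among all genes of 3 to 10 TPM 14.8% were above and 11.0% below, and among those of 1 to 3 TPM 17.9% and 7.32%. LOC_Os03g07100 (LTPL82) was the 1 lipid transfer gene called, with 20.4, 7.88 and 12.6 TPM in the hybrids, against 1.39 and 1.01 TPM in the parents.

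Disease resistance genes of the NB-ARC type had 11 above and 11 below of 186 (5.91% each way). Pentatricopeptide repeat genes had 38 (11.2%) and 36 (10.7%) of 338, and chromatin regulators 10 and 10 of 81 (12.3% each way). Over all genes the shares were 12.2% above and 10.8% below. In all 6 pairs 0 members of these 3 lists were called.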
